A study of Mus musculus with 2 samples.

Results

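A set of 10 genes of high-energy phosphate handling was examined in gastrocnemius (GAS) muscle from WT and *Gde5* skKO mice: *Ckm*, *Ckmt2* and *Slc6a8* of the creatine system, *Ak1*, *Ampd1* and *Ampd3* of adenylate turnover, and *Prkaa1*, *Prkaa2*, *Prkab2* and *Prkag3*, which encode subunits of AMP-activated protein kinase (AMPK). They were chosen by name, as every probe that is not a control and that carries 1 of the 10 symbols or an older symbol of the gene, and 12 probes met that rule. All 10 genes were among the 13289 genes that could be tested, out of 27597 gene names on the arrays. *Gde5*, also called *Gpcpd1*, encodes a phosphodiesterase that hydrolyzes glycerophosphocholine. The *Gde5* skKO mice carry floxed alleles of exon 11 and a Cre transgene driven by the human α-skeletal actin promoter, so that the gene is deleted in skeletal muscle fibres. The WT controls are floxed littermates. All were male C57BL/6 mice aged 15 weeks on a normal diet, and the sources used here do not state whether these arrays hold fasted mice or mice given glucose. Total RNA of both genotypes competed for the same spots on 2 two-colour Agilent arrays. On array 1 the WT sample was the Cy3 channel and the *Gde5* skKO sample the Cy5 channel, and array 2 had the dyes the other way round. The labels name 5 mice of each genotype, without stating a pool or how the RNA was divided between the arrays. Both arrays therefore measure the spread between hybridizations, which may be technical, and no test across mice was possible.

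Contracting muscle spends ATP faster than mitochondria can replace it, and the creatine system fills the gap by passing phosphate from phosphocreatine to ADP. Adenylate kinase recovers ATP from ADP and leaves AMP, which AMP deaminase converts to IMP. AMP that is not removed binds the γ subunit of AMPK, a complex of a catalytic α, a scaffolding β and a regulatory γ subunit that shifts muscle towards fuel uptake and oxidation.

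None of the 10 genes was called higher or lower in *Gde5* skKO muscle. A gene was called when the error-model p of Agilent Feature Extraction was under 0.05 on both arrays with the same direction, after each ratio had been turned to *Gde5* skKO over WT. Of all genes tested, 1.66% were called higher and 1.81% lower by that rule, and a count of 0 in 10 lies near that background. A further 1.68% of all genes passed the threshold on both arrays in opposite turned directions, which follows the dye and not the genotype, and none of the 10 genes did. The error model describes spots within an array and leaves out the spread between mice. Other tests gave few calls: limma's moderated test on renormalized ratios had 2 of the 10 genes at an unadjusted p under 0.05, *Ckmt2* higher and *Prkag3* lower, and none after adjustment. Over all genes, that unadjusted test took 4.30% higher and 4.34% lower. The methods' t-test on channel signals took *Prkab2* alone, as lower, at an unadjusted p under 0.05, against 4.17% of all genes, and no gene of the 13289 after adjustment.

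**Figure D1:**
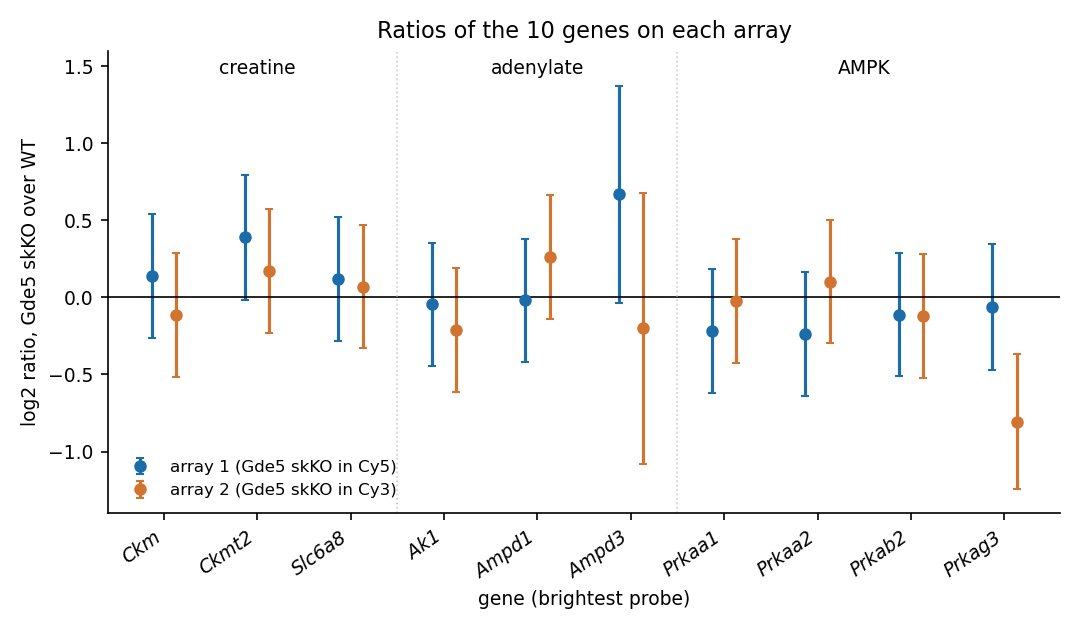
Log2 ratio of *Gde5* skKO over WT for the brightest probe of each of the 10 genes (horizontal axis) on array 1 (blue) and array 2 (orange). Bars are 95% intervals from the Feature Extraction error within that array, and *Prkag3* on array 2 is the value whose interval, from -1.24 to -0.37, leaves out 0.

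The mean ratio over both arrays lay between -0.44 for *Prkag3* and 0.28 for *Ckmt2* on the log2 scale, and all 10 means were within 1.5-fold of equality. The same held for 95.8% of all genes tested. The median of the 10 means was -0.03, and the median over all genes was 0.02. Combining the error of both arrays, the 95% interval of the mean stayed within 1.5-fold for 8 of the 10 genes, the exceptions being *Ampd3* and *Prkag3*, and it held 0 for 9, the exception being *Prkag3*. The direction was the same on both arrays for 6 genes, with *Ckmt2* and *Slc6a8* higher and *Ak1*, *Prkaa1*, *Prkab2* and *Prkag3* lower, and it was opposite for *Ckm*, *Ampd1*, *Ampd3* and *Prkaa2*. Among all genes tested, 54.4% had the same direction on both arrays. In RNA from whole muscle, fewer cells of a type and less RNA per cell cannot be told apart.

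*Ckm* encodes the cytosolic muscle creatine kinase, which regenerates ATP beside the myofibrils. Its probe lies on the plus strand of chromosome 7 between positions 18575395 and 18578002 of the mouse assembly mm8. The processed signal, in arbitrary units after background subtraction and dye correction, was 69585 in WT and 76538 in *Gde5* skKO on array 1, and 70561 in WT and 65240 in *Gde5* skKO on array 2. The genotypes overlapped, since the highest and the lowest of the 4 signals both came from *Gde5* skKO muscle. The log2 ratio was 0.14 with an error-model p of 0.501 on array 1 and -0.11 with a p of 0.580 on array 2, and the mean was 0.01 ± 0.18 (SD, n = 2 arrays). The 95% error-model interval of that mean corresponds to 0.829 to 1.23 times the WT level.

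*Ckmt2* encodes the sarcomeric mitochondrial creatine kinase, which charges creatine with phosphate at the site of ATP production. It had the highest mean ratio of the 10 genes. The probe, on the minus strand of chromosome 13 between 92327876 and 92330024, gave 64531 in WT and 84505 in *Gde5* skKO on array 1. On array 2 it gave 72251 in WT and 81271 in *Gde5* skKO, so both *Gde5* skKO signals were above both WT signals. With 2 signals of each genotype, such a separation carries little weight for any gene named here, and its share among all genes is not given. The ratio was 0.39 on array 1, with an error-model p of 0.0603, and 0.17 on array 2, with a p of 0.407. The mean was 0.28 ± 0.16 (SD, n = 2 arrays), a fold of 1.21 with a 95% error-model interval from 0.996 to 1.48. After normexp background correction and loess normalization the ratios were 0.44 and 0.24, and limma gave an unadjusted p of 0.0101 and an adjusted p of 0.292.

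On the same arrays, 11 genes listed for slow fibres, which are rich in mitochondria, were tested. Of these, 3 were called higher and none lower, against 1.66% and 1.81% of all genes. They were the myosin light chain *Myl2* (mean log2 ratio 0.84), the troponin *Tnni1* (0.67) and the calsequestrin *Casq2* (0.67). *Myh7* was not called, with a mean of 0.33 and error-model p-values of 0.144 and 0.085. Of the 11 genes, 9 were higher on both arrays, and *Atp2a2* and *Myoz2* had opposite directions. The summed signal of the 11 genes was 148607 to 149362 in WT and 191819 to 206059 in *Gde5* skKO. Of 9 fast-fibre genes tested, none was called and the mean ratios ran from -0.34 to 0.31. The part of fibre composition in the *Ckmt2* ratio, or in that of the fast-fibre gene *Prkag3*, was not tested.

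*Slc6a8* encodes the transporter that brings creatine into the fibre. On array 1 its probe, on the plus strand of the X chromosome between 69934979 and 69935038, read 13235 in WT and 14369 in *Gde5* skKO. The readings on array 2 were 15383 in WT and 16141 in *Gde5* skKO, and the genotypes overlapped across arrays, although *Gde5* skKO was the higher within each. The ratios of 0.12 and 0.07 had error-model p-values of 0.562 and 0.734. The mean was 0.09 ± 0.03 (SD, n = 2 arrays), and its 95% error-model interval ran from 0.877 to 1.30-fold.

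**Figure D2:**
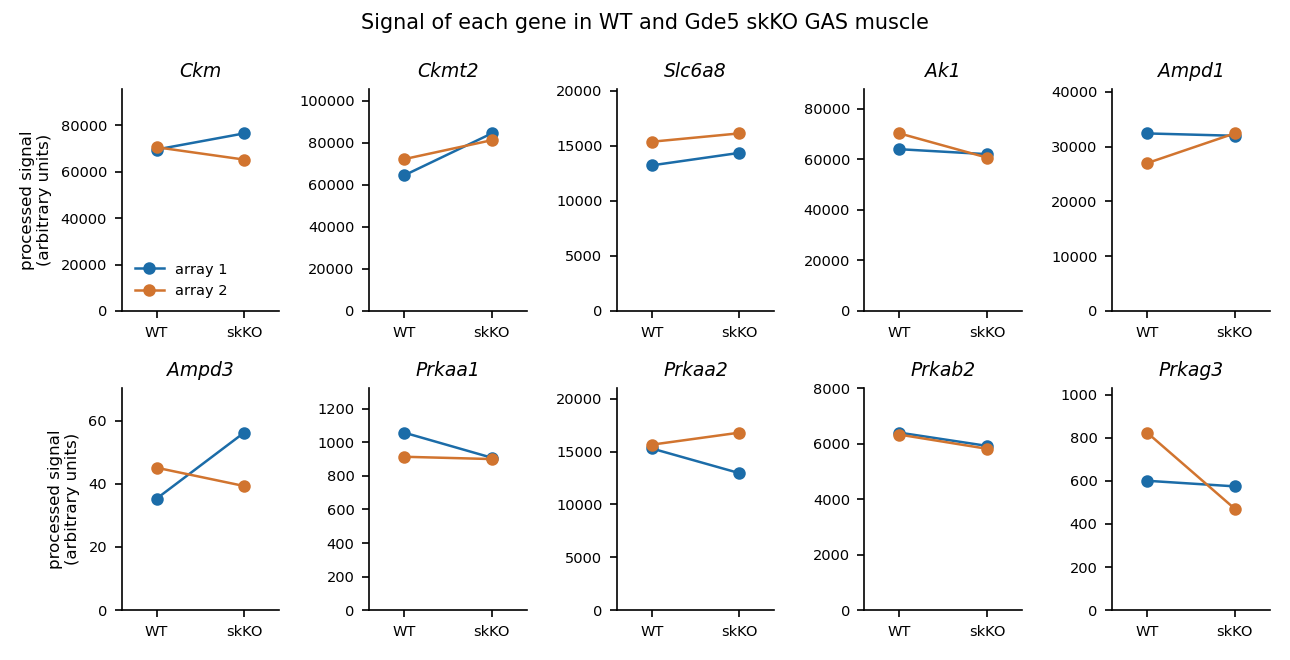
Processed signal in arbitrary units (vertical axis, starting at 0) of the brightest probe of each gene in WT and *Gde5* skKO muscle, with 1 line per array (array 1 blue, array 2 orange). Only the slope of a line within a panel compares genotypes, since signals of different probes are not comparable. The *Ckmt2* lines both rise, the lines of *Ckm*, *Ampd1*, *Ampd3* and *Prkaa2* slope in opposite directions on the arrays, and the *Prkag3* line falls from 823.5 to 470.6 on array 2 but only from 600.2 to 574.3 on array 1.

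*Ak1* encodes the cytosolic adenylate kinase of muscle. Its probe, on the plus strand of chromosome 2 between 32456816 and 32456876, gave 63957 in WT and 61996 in *Gde5* skKO on array 1. On array 2 the signals were 70216 in WT and 60623 in *Gde5* skKO, and both WT signals were above both *Gde5* skKO signals. The ratios were -0.04 and -0.21, with error-model p-values of 0.826 and 0.301. The mean was -0.13 ± 0.12 (SD, n = 2 arrays), with a 95% error-model interval from 0.752 to 1.11-fold.

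*Ampd1* encodes the AMP deaminase of adult skeletal muscle, which feeds the purine nucleotide cycle. The signals on array 1 were 32395 in WT and 31967 in *Gde5* skKO for the probe on the plus strand of chromosome 3 between 103227787 and 103227846. The signals on array 2 were 26971 in WT and 32403 in *Gde5* skKO. The array 1 signals lay close together and the difference was seen on array 2 alone, where the ratio of 0.26 had an error-model p of 0.198, against -0.02 and 0.925 on array 1. The mean was 0.12 ± 0.20 (SD, n = 2 arrays), or 0.894 to 1.33-fold at 95% by the error model. Renormalization set the arrays further apart, at -0.20 and 0.46.

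*Ampd3*, which encodes the deaminase isoform known from erythrocytes, was close to the background. The brighter of its probes, on the plus strand of chromosome 7 between 110602643 and 110602702, read 35.3 in WT and 56.2 in *Gde5* skKO on array 1, and 45.1 in WT and 39.3 in *Gde5* skKO on array 2. On each array the genotype labelled with Cy5 was the brighter, and only that channel was well above background. Each genotype was therefore measured above background on 1 of the 2 arrays. The ratios of 0.67 and -0.20 had error-model p-values of 0.0631 and 0.653, and the mean of 0.23 ± 0.62 (SD, n = 2 arrays) had a 95% error-model interval from 0.796 to 1.74-fold. Normexp and loess brought the mean to 0.02. A difference between arrays at least as large as that of *Ampd3* was found for 8.68% of all genes tested. The other *Ampd3* probe, on chromosome 7 between 110586949 and 110591842, did not rise well above background in either genotype, and its ratio is left out.

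Of 7 erythroid markers tested beside *Ampd3*, none was called. Their summed signal was 41518 to 45755 in WT and 36795 to 38405 in *Gde5* skKO. The part of blood content in the *Ampd3* signal was not tested.

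AMPK α subunits carry the kinase domain. *Prkaa2* encodes α2, the main catalytic isoform of skeletal muscle, and its probe on the minus strand of chromosome 4 between 104533035 and 104533094 read 15301 in WT and 12965 in *Gde5* skKO on array 1. On array 2 it read 15661 in WT and 16801 in *Gde5* skKO. The *Gde5* skKO signals were therefore the lowest and the highest of the 4. The ratios were -0.24 and 0.10, with error-model p-values of 0.244 and 0.620, and the mean was -0.07 ± 0.24 (SD, n = 2 arrays). The 95% error-model interval of the mean ran from 0.783 to 1.16-fold.

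*Prkaa1*, which encodes α1, had a pair of probes on the plus strand of chromosome 15. The brighter, between 5128641 and 5128700, read 1058.0 in WT and 908.4 in *Gde5* skKO on array 1. Its readings on array 2, of 914.2 in WT and 900.5 in *Gde5* skKO, were nearly equal, and both WT signals were above both *Gde5* skKO signals. The ratios were -0.22 and -0.02, with error-model p-values of 0.285 and 0.915, and the mean was -0.12 ± 0.14 (SD, n = 2 arrays). The dimmer probe, between 5124365 and 5125906, had ratios of 0.00 and 0.21 and a mean of 0.10 ± 0.15 (SD, n = 2 arrays). The probes thus differed in the sign of the mean, and both 95% error-model intervals held 0, from -0.41 to 0.16 for the brighter and from -0.26 to 0.47 for the dimmer.

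*Prkab2* encodes β2, the scaffold that also binds glycogen, and was the most even of the 10 genes between arrays. The probe lies on the plus strand of chromosome 3 between 97758325 and 97758384. It gave 6405 in WT and 5926 in *Gde5* skKO on array 1, and 6333 in WT and 5822 in *Gde5* skKO on array 2, so the WT signals were above the *Gde5* skKO signals on both arrays. The ratios were -0.11 and -0.12, the mean was -0.12 ± 0.01 (SD, n = 2 arrays), and 97.6% of all genes had as large or larger a difference between arrays. The error-model p-values were 0.583 and 0.553, and the fold was 0.922 with a 95% interval from 0.758 to 1.12. Its unadjusted p was 0.0164 by the methods' t-test and 0.241 by limma's moderated test. Like each of the 12 probes, it was read from 1 spot per array.

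*Prkag3* encodes γ3, the AMP-sensing subunit that is largely restricted to fast glycolytic fibres, and had the lowest mean ratio of the 10 genes. The probe, on the minus strand of chromosome 1 between 74674013 and 74674402, read 600.2 in WT and 574.3 in *Gde5* skKO on array 1. It read 823.5 in WT and 470.6 in *Gde5* skKO on array 2, and both WT signals were above both *Gde5* skKO signals. The ratio was -0.06 on array 1, with an error-model p of 0.761, and -0.81 on array 2, with a p of 0.000299. At an error-model p under 0.05, array 1 alone took 12.6% of all genes tested and none of the 10, and array 2 alone took 14.3% of all genes and *Prkag3* among the 10. The mean was -0.44 ± 0.53 (SD, n = 2 arrays), a fold of 0.739 with a 95% error-model interval from 0.601 to 0.910. By the error model the 2 ratios differed with a p of 0.0151, and the interval leaves out that spread between arrays. A difference between arrays as large as that of *Prkag3* was found for 10.8% of all genes.

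The *Prkag3* values depended on how the arrays were normalized more than those of the other 8 genes with signal above background did. The mean signal of the scan, before any correction, was 120.3 in WT and 132.5 in *Gde5* skKO on array 1, over local backgrounds of 30.0 and 40.0. It was 170.7 in WT and 108.8 in *Gde5* skKO on array 2, over local backgrounds of 37.0 and 35.5. With normexp and loess in place of the deposited correction, the ratios were -0.36 on array 1 and -0.38 on array 2, so that the arrays differed far less while the mean stayed at -0.37. Limma's moderated test of these ratios gave an unadjusted p of 0.00476 and an adjusted p of 0.196. Loess without background correction gave a mean of -0.35.

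**Figure D3:**
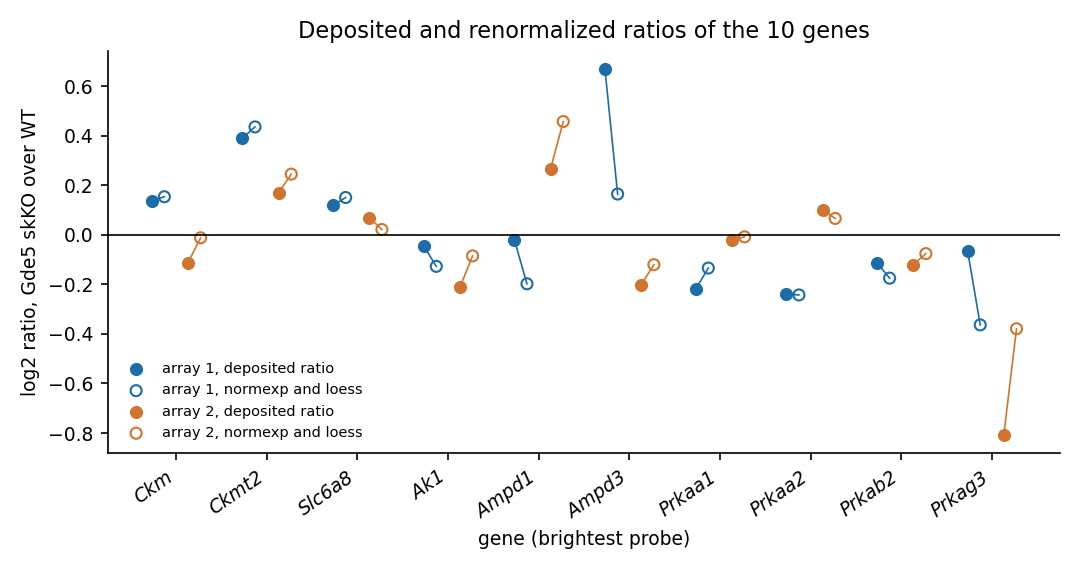
Log2 ratio of *Gde5* skKO over WT for each of the 10 genes (horizontal axis) as deposited (filled points) and after normexp background correction and loess normalization (open points), for array 1 (blue) and array 2 (orange). The *Prkag3* arrays move from -0.06 and -0.81 to -0.36 and -0.38, and the *Ampd1* arrays move apart.

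The spots set a limit on what could be seen. For the 9 genes with both genotypes well above background on each array, the error model required a log2 ratio of 0.40 to 0.44 on an array for a p under 0.05, a fold of 1.32 to 1.35. For *Ampd3* it required 0.71 on array 1 and 0.88 on array 2. An observed ratio of any of these 9 genes below about that size could not pass on a single array. A call needed a pass on both arrays in the same direction, so a true change above that size could also be missed.

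Genes of the same pathways outside the 10 gave 1 call in each direction among 88 tested, which is 104 listed less 4 without a probe, 2 whose spots carried outlier marks and 10 not above background. The share was thus near that of all genes. Guanidinoacetate methyltransferase, encoded by *Gamt*, makes creatine from guanidinoacetate and was the gene called higher. Its probe on the minus strand of chromosome 10, between 79661371 and 79661431, read 2706.8 in WT and 3957.0 in *Gde5* skKO on array 1. On array 2 it read 3064.7 in WT and 4535.1 in *Gde5* skKO, and both *Gde5* skKO signals were above both WT signals. The ratios were 0.55 and 0.57, with a mean of 0.56 ± 0.01 (SD, n = 2 arrays) and a fold of 1.47. The probe was printed 10 times on each array. The single spots ran from 0.49 to 0.61 on array 1 and from 0.49 to 0.62 on array 2, and the error-model p of a single spot was at most 0.0185 and 0.0191. After normexp and loess the mean was 0.51, and limma's adjusted p was 0.0625.

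The other genes of the creatine list were not called. *Ckb*, the brain-type creatine kinase, had a mean ratio of 0.15, and *Gatm*, which makes guanidinoacetate, had 0.35. The creatine transporter gene *Slc16a12* was dim and passed the filter through its *Gde5* skKO signal alone. Its signals were 22.5 in WT and 38.0 in *Gde5* skKO on array 1, and 30.6 and 54.1 on array 2. Its mean ratio of 0.79 had error-model p-values of 0.169 on array 1 and 0.134 on array 2, and normexp and loess brought the mean to 0.02. *Ckmt1*, the ubiquitous mitochondrial creatine kinase, did not pass the filter on dim probes.

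Of 31 further adenylate and purine genes tested, none was called. The highest mean ratio was 0.48 ± 0.10 (SD, n = 2 arrays) for *Ak4*, an adenylate kinase of the mitochondrial matrix, and normexp and loess brought it to 0.14. The lowest was -0.48 ± 0.15 (SD, n = 2 arrays) for *Vdac1*, the outer mitochondrial membrane channel through which adenylates pass. Its error-model p was 0.00526 on array 1 and 0.0690 on array 2, and its mean after normexp and loess was -0.65. The purine salvage gene *Hprt*, whose probe was also printed 10 times, had ratios of 0.28 and -0.26 and followed the dye. The combined error of its 10 spots passed the threshold on both arrays, although no single spot did, the lowest p of a spot being 0.0717. *Adssl1*, the muscle adenylosuccinate synthase that works beside *Ampd1* in the purine nucleotide cycle, lost its spots to outlier marks, and with the marked spots kept its ratios were 0.18 and -0.06.

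Sestrin 2, encoded by *Sesn2* and known as a stress-induced protein upstream of AMPK, was called lower, alone among 21 further subunits and regulators tested. The brighter probe, on the minus strand of chromosome 4 between 131764135 and 131764194, read 346.6 in WT and 242.1 in *Gde5* skKO on array 1. It read 318.1 in WT and 219.6 in *Gde5* skKO on array 2, and the genotypes did not overlap. The ratios were -0.52 and -0.53, with error-model p-values of 0.0180 and 0.0168, and the mean was -0.53 ± 0.01 (SD, n = 2 arrays). A dimmer probe of *Sesn2*, between 131765019 and 131765078, had ratios of 0.38 and -0.02, so the probes disagreed, and over both the mean was -0.17, which was not called. After normexp and loess the brighter probe had -0.29, and limma's adjusted p was 0.386.

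The AMPK-related kinases gave no call among 8 tested, with means from -0.26 for *Nuak2* to 0.05 for *Nuak1*. Of 24 AMPK targets tested, none was called. The highest mean was 0.44 ± 0.19 (SD, n = 2 arrays) for *Ppargc1a*, the coactivator of mitochondrial gene expression. Its error-model p-values were 0.00660 on array 1 and 0.144 on array 2. The dimmer *Ppargc1a* probe had ratios of 0.23 and 0.19, with error-model p-values of 0.263 and 0.362. The lowest mean was -0.44 ± 0.18 (SD, n = 2 arrays) for *Pfkfb3*, a regulator of phosphofructokinase, with p-values of 0.00664 and 0.129. A dimmer *Pfkfb3* probe had ratios of -0.52 and -0.50, with error-model p-values of 0.0161 and 0.0226. It passed the call rule but does not stand for the gene. Another dimmer probe had -0.10 and -0.32, with error-model p-values of 0.689 and 0.207. AMPK acts on its targets mainly by phosphorylation, which arrays do not measure.

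**Figure D4:**
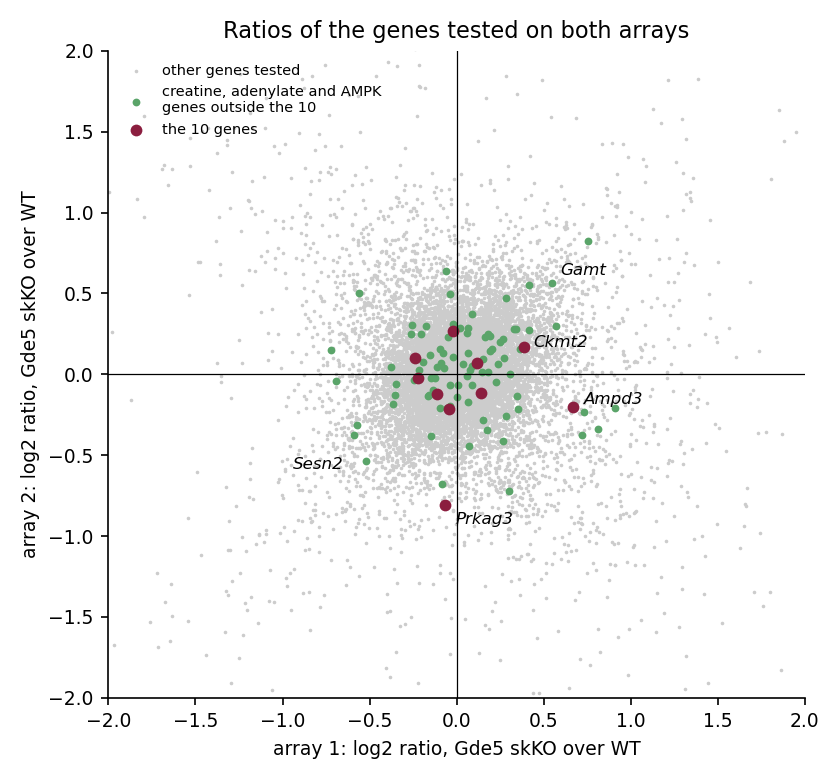
Log2 ratio of *Gde5* skKO over WT on array 1 (horizontal axis) and array 2 (vertical axis) for the genes tested, with the 10 genes in dark red, the pathway genes outside the 10 in green and all others in grey, and 104 genes beyond the axes not shown. Genes that follow the genotype lie in the lower left and upper right quadrants, where *Sesn2* and *Gamt* sit, and *Ampd3* lies in a quadrant that follows the dye.

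Of the *Gde5* probes, 3 had mean ratios from -3.18 to -2.93. After normexp and loess the dimmest of these moved from -3.18 to -1.45, and the means of the rest were -2.78 and -2.73. The other *Gde5* probe, on the minus strand of chromosome 2 between 132256048 and 132256107, had -0.05 and -0.47. That other probe was the brightest, so it stood for the gene. Its error-model p was 0.805 on array 1 and 0.0255 on array 2, and *Gde5* itself was not called. The brightest-probe rule can therefore miss a difference that dimmer probes of a gene show. Muscle genes were present on both arrays, with a summed signal of 828128 to 867734 over 13 tested, and none of the 13 was called. Among other cell types, 5 of 9 adipocyte genes tested were called lower (*Adipoq*, *Cfd*, *Cidec*, *Plin1* and *Retn*, with a mean log2 ratio of -0.90 for *Cfd* and -0.69 for *Plin1*). The other 4 were not, with 0.05 for *Fabp4*, 0.15 for *Lpl*, -0.01 for *Pparg* and -1.06 for *Scd1*, and the summed signal, most of it from *Fabp4* and *Lpl*, was 62222 to 64175 in WT and 61177 to 64687 in *Gde5* skKO. Endothelial genes had 2 of 7 called higher, *Kdr* with 0.42 and *Pecam1* with 0.22. The 7 ranged from -0.29 to 0.45 with a median of 0.02, and *Pecam1* had 0.07 after normexp and loess. The log2 errors of *Kdr* and *Pecam1* were 0.066 to 0.073, against 0.20 for *Cdh5*, because errors of their repeated spots were combined as independent. Of 4 liver genes tested, *Apoh* was called higher with 0.81, while *Alb*, *Cyp2e1* and *Fgb* were not called and had -0.66, -0.63 and -0.11. No gene was called on the immune, fibroblast and tendon, smooth muscle and Schwann cell lists. The part of these cells in the ratios of the 10 genes was not tested. Between 44.5% and 53.2% of spots were well above background in each channel.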

How the data were processed

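The authors hybridized muscle RNA of both genotypes on 2 dye-swapped Agilent arrays. Feature Extraction 9.5.3.1 processed the scans, with the array annotation on mm8. Per spot, the deposited files give a log10 ratio of Cy5 to Cy3, corrected for background and dye, a p-value and an error from the software's error model, and an intensity for each channel and its local background. The authors' series table repeats the log10 ratio with the swapped array not turned and a median of 0 per column.

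Each ratio was put on the log2 scale and signed as *Gde5* skKO over WT. Control spots were left out, as were 686 and 830 of 43379 other spots with feature or background outlier marks on arrays 1 and 2. Spots of a probe were averaged, with their errors combined as independent. The brightest probe stood for its gene, and a gene was tested when that probe was well above background in either channel of each array. Of 41174 probes, 24375 were named through a RefSeq table by accession, 6301 by symbol and 2426 by synonym. The members and gene lists were chosen with earlier results of these data known. Genes named outside the members were those called, or else the highest and lowest of each pathway list, and the others named were chosen after their values were seen. Replicates are arrays, so their number limits precision.

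Alternatives used limma 3.58.1 under R 4.3.3 (normexp offset 50, loess, moderated test) and the methods' t-test, an unpaired test of log2 channel signals. The remaining software was matplotlib 3.10.9, scipy 1.17.1, pandas 2.3.3, numpy 2.4.6 and Python 3.11.15. The call rule was also run on simulated ratios that held spot error alone, without a dye effect or a spread between mice. Intervals at 95% cover spot error only. Exon and UTR annotation of the probes was not used here.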

Additional observations from a re-analysis of the deposited data

How the results depend on the processing

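The count of 0 of the 10 genes called in each direction was unchanged under 13 of the alternatives that were run with both arrays. These were normexp with loess, loess alone, the series table, a filter on both channels, no filter, the mean of all probes, any probe, a p under 0.01, a p adjusted within each array, a fold of at least 1.5, centring on the median gene, keeping debris spots (no such spot remained) and, chosen after seeing the data, keeping spots with outlier marks. Most of these settings could not have moved the count, because none of the 10 genes had an error-model p under 0.05 on array 1. The renormalized, series-table and centred settings kept the deposited p-values, so only a sign could change. The stricter thresholds and the filter on both channels could only remove calls. With limma's moderated test the count was 1 higher and 1 lower unadjusted, and 0 and 0 adjusted. The methods' t-test gave 1 lower unadjusted and 0 adjusted. With single arrays it ranged from 0 to 1 lower, the 1 being *Prkag3* without array 1, and stayed at 0 higher. Of the pathway genes outside the 10, 1 was called higher and 1 lower. The mean of all probes gave 2 higher and 1 lower, *Sesn2* no longer being called (-0.17). Taking any probe gave 2 lower, *Sesn2* and *Pfkfb3*. A p under 0.01 or adjusted within each array gave 0 lower, and a fold of at least 1.5 gave 0 and 0. There, limma's unadjusted test gave 4 and 4, its adjusted test 0 and 0, the t-test 7 higher and 2 lower unadjusted and 0 and 0 adjusted. Single arrays ranged from 4 to 7 higher and from 4 to 5 lower. No called ratio changed sign. Among the 10 genes, *Ckm* changed sign, uncalled, under centring, where its mean was near 0. Without array 1, *Ckm*, *Ampd3* and *Prkaa2* had the opposite sign to their mean over both arrays, and without array 2 *Ampd1* did, all uncalled. A slide or scan block was not run because both arrays share 1 slide and 1 scan. The genotypes are paired within each array, and limma's test of the ratios uses that pairing while the methods' t-test does not.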
